A study of Rattus norvegicus with 9 samples.

Results

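The Wnt ligands, Frizzled receptors, secreted Wnt antagonists and core signalling genes were followed in cultured pulmonary arterial smooth muscle cells of rats. They were chosen by gene name: every non-control probe named as a Wnt, Fzd, Sfrp or Dkk gene followed by a digit, or as Lrp5, Lrp6, Wif1, Frzb, Axin1, Axin2, Ctnnb1, Lef1 or Tcf7. This gave 52 of 41012 probes, for 39 gene names; Lrp6 was not analysed here. Of these 39 genes, 25 had a probe that stood well above background throughout some group of 3 arrays and were tested, among 22108 genes tested in all.

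The cells came from male SD rats, at culture generation 4, and 3 groups of 3 arrays were compared. One was kept in normoxia, one in hypoxia at 1% oxygen, and one in hypoxia with quercetin, a plant flavonol. The treatment text describes 24 h without serum and then 24 h in 10% serum with quercetin or with 0.1% DMSO, the solvent; how much quercetin was given is not stated there. The labels do not tell whether a group's arrays came from separate cultures or animals, so the spread behind each p-value is that of these samples alone and may be technical.

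Each value is the log2 of a spot's intensity minus the log2 of that array's 75th percentile of intensity, so 0 is the brightness that 75% of probes do not exceed. Values can be compared between arrays for 1 probe, not between probes. In intensity units the 75th percentile lay between 627 and 640 for normoxia, 439 and 462 for hypoxia, and 450 and 504 for quercetin, and 53.4% to 74.7% of probes were well above background on an array. Normoxia replicates 1 and 2 were on one slide and scanned on another day than the rest. The slide of normoxia replicate 3 held the hypoxia arrays too, and the quercetin arrays had a slide of their own; for quercetin against hypoxia, slide and treatment cannot be told apart. Of the smooth muscle marker list, 9 of 10 genes were tested, and their summed signal (log2) ranged over 7.29 to 7.87 (normoxia), 8.42 to 8.50 (hypoxia) and 6.86 to 7.11 (quercetin). This sum mostly follows Tagln, the brightest of them. In normoxia Tagln and Cnn1, contractile markers of smooth muscle, were at means of 7.22 and 2.78, and Des and Myocd at -3.96 and -3.04. Acta2 was not analysed here. By limma at an adjusted p of 0.05, 5 of the 9 rose and none fell in hypoxia (55.6% passed, of all genes 64.2%). With quercetin against hypoxia 6 fell and none rose (66.7%, of all genes 58.4%). Of the endothelial list 3 of 8 genes were tested, and Pecam1, Vwf, Tek, Emcn and Tie1 did not pass the filter on dim probes in any group. The tested genes Eng, Cdh5 and Kdr were at means of -1.36, -3.84 and -4.98 in normoxia. None of them was called in hypoxia (0% passed, of all genes 64.2%). With quercetin against hypoxia Cdh5 and Eng fell, with differences of -1.22 and -0.98 (66.7%, of all genes 58.4%). None was called with quercetin against normoxia.

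Wnt proteins are secreted lipid-modified ligands that bind Frizzled receptors, with Lrp5 and Lrp6 as co-receptors for the branch that stabilises β-catenin (Ctnnb1) and lets it act with Tcf and Lef transcription factors. Axin scaffolds the complex that degrades β-catenin, while Sfrp proteins, Frzb and Wif1 bind Wnt ligands outside the cell and Dkk1 blocks the co-receptors. In pulmonary arteries the pathway is known for its part in vessel development and in the remodelling of the vessel wall in pulmonary hypertension.

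Several probes read Sfrp2, Sfrp4 and Ctnnb1, and they are shown because agreement between them bears on the largest differences below. Positions are those of the scanner files (rn4). Probes of 60 bases are printed whole or, for 5 of them, as their first 30 bases, in lower case with nothing marked.

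Sfrp2 probe A_44_P1036291 (chr2:175485829-175485888, + strand): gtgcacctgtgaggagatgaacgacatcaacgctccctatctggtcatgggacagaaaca
Sfrp2 probe A_44_P503115 (chr2:175486729-175486788, + strand): ttttttcttcaaactaaatcattgtagcta
Sfrp2 probe A_44_P503116 (chr2:175486657-175486716, + strand): atacagtttataaatcaacgagtattttaa
Sfrp4 probe A_44_P290187 (chr17:53121979-53122038, - strand): tttctctttaaaccacagatccctgttatt
Sfrp4 probe A_44_P292745 (chr17:53127536-53127595, - strand): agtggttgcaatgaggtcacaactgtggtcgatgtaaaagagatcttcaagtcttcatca
Sfrp4 probe A_43_P16129 (chr17:53033175-53033234, - strand): ttctacttaagctgactagttcatgtgtag
Ctnnb1 probe A_44_P254254 (chr8:125988494-125988553, + strand): ttcatgtttttgaacaagaactttattggg
Ctnnb1 probe A_44_P409339 (chr8:125978680-125978871, + strand): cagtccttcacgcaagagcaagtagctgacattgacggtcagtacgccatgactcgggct

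The Sfrp2 probes lie within one stretch of chromosome 2, and Ctnnb1 probe A_44_P409339 spans more of chromosome 8 than its own length, as a probe across a splice junction does. The first 2 Sfrp4 probes lie 5.50 kb apart, whereas the last, A_43_P16129, lies 88.7 kb from its nearest neighbour and was never read well above background.

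Hypoxia against normoxia asked how low oxygen alone moved the pathway. The secreted antagonists Sfrp4, Sfrp2 and Frzb and the receptor Fzd1 fell by more than 2 log2 units, and β-catenin mRNA fell by more than 1. The ligands moved the other way under the main scaling: 6 of the 8 Wnt genes tested rose and none fell. Scaled to the spike-in spots, Wnt5b turned to -0.22 (limma adjusted p = 0.17), and Wnt1, Wnt5a, Wnt7a and Wnt9a no longer passed. Wnt4 was called lower with that scaling, at -0.86 (adjusted p = 0.0056). With normexp background correction only Wnt5a among these ligands passed. By limma 17 of the 25 tested genes passed an adjusted p of 0.05, 10 higher and 7 lower, where 64.2% of all genes tested passed, 35.3% higher and 28.9% lower; a share of this size is close to the background. At least 2-fold changes were called for 9 of the 25, 4 higher and 5 lower, where 24.1% of all genes had one, 11.3% higher and 12.8% lower. The groups did not overlap for 21 of the 25, against 71.6% of all genes. The median difference was 0.29 over the 25 genes and 0.10 over all genes. Sfrp2, Frzb and Fzd6 passed the filter on dim probes only through normoxia, the group where they read highest, so their entry into the test favoured a fall.

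Among the ligands, Wnt11, which acts mainly through β-catenin-independent signalling, read -4.63, -5.68 and -4.42 in normoxia, -3.18, -3.17 and -3.39 in hypoxia and -4.49, -3.77 and -4.04 with quercetin. Every hypoxia array was above every other array. The rise in hypoxia was 1.66 ± 0.32 (log2 difference ± SE, n = 3 and 3, limma adjusted p = 0.0021). Fitted with slide as a block it was 1.17 (adjusted p = 0.0501), and with normexp background correction 0.27 (adjusted p = 0.74).

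Wnt5a, the best known ligand of the β-catenin-independent branch, was at 0.66, 0.72 and 0.53 in normoxia, 1.29, 1.30 and 1.25 in hypoxia and 0.36, 0.54 and 0.31 with quercetin. Hypoxia was above both other groups without overlap, by 0.64 ± 0.094 over normoxia (limma adjusted p = 4.9e-04). Scaled to the spike-in spots, this rise was 0.14 (adjusted p = 0.24). Wnt5b, Wnt7a and Wnt9a rose by 0.29, 0.65 and 0.87. For Wnt5b the call was lost in 7 of 9 fits that left out an array, those without normoxia replicate 1 or 2, hypoxia replicate 1 or 3, or any single quercetin array. With slide as a block Wnt7a and Wnt9a missed the threshold (adjusted p = 0.060 and 0.074), and with normexp background correction their differences were 0.17 (adjusted p = 0.79) and 0.15 (0.87). The other kept Wnt5b probe, A_44_P328090, differed by 1.22 (limma adjusted p = 0.054). Its hypoxia arrays read -4.07, -4.11 and -2.05. The other Wnt7a probes, A_44_P395788 and A_44_P623953, were well above background on no array.

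Wnt1, a classical β-catenin-stabilising ligand, was dim. It read -5.44, -5.18 and -4.12 in normoxia, -3.89, -3.88 and -3.65 in hypoxia and -5.69, -4.79 and -5.20 with quercetin. The normoxia arrays differed among themselves, with replicate 3, the one on the hypoxia slide, highest. The rise of 1.11 ± 0.35 (limma adjusted p = 0.022) became 0.31 (adjusted p = 0.45) with slide as a block. It also missed the threshold without normoxia replicate 1 (adjusted p = 0.074), normoxia replicate 2 (0.070) or hypoxia replicate 3 (0.060). With normexp background correction the difference was 0.17 (limma adjusted p = 0.89), and scaled to the spike-in spots 0.60 (0.13).

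**Figure D1:**
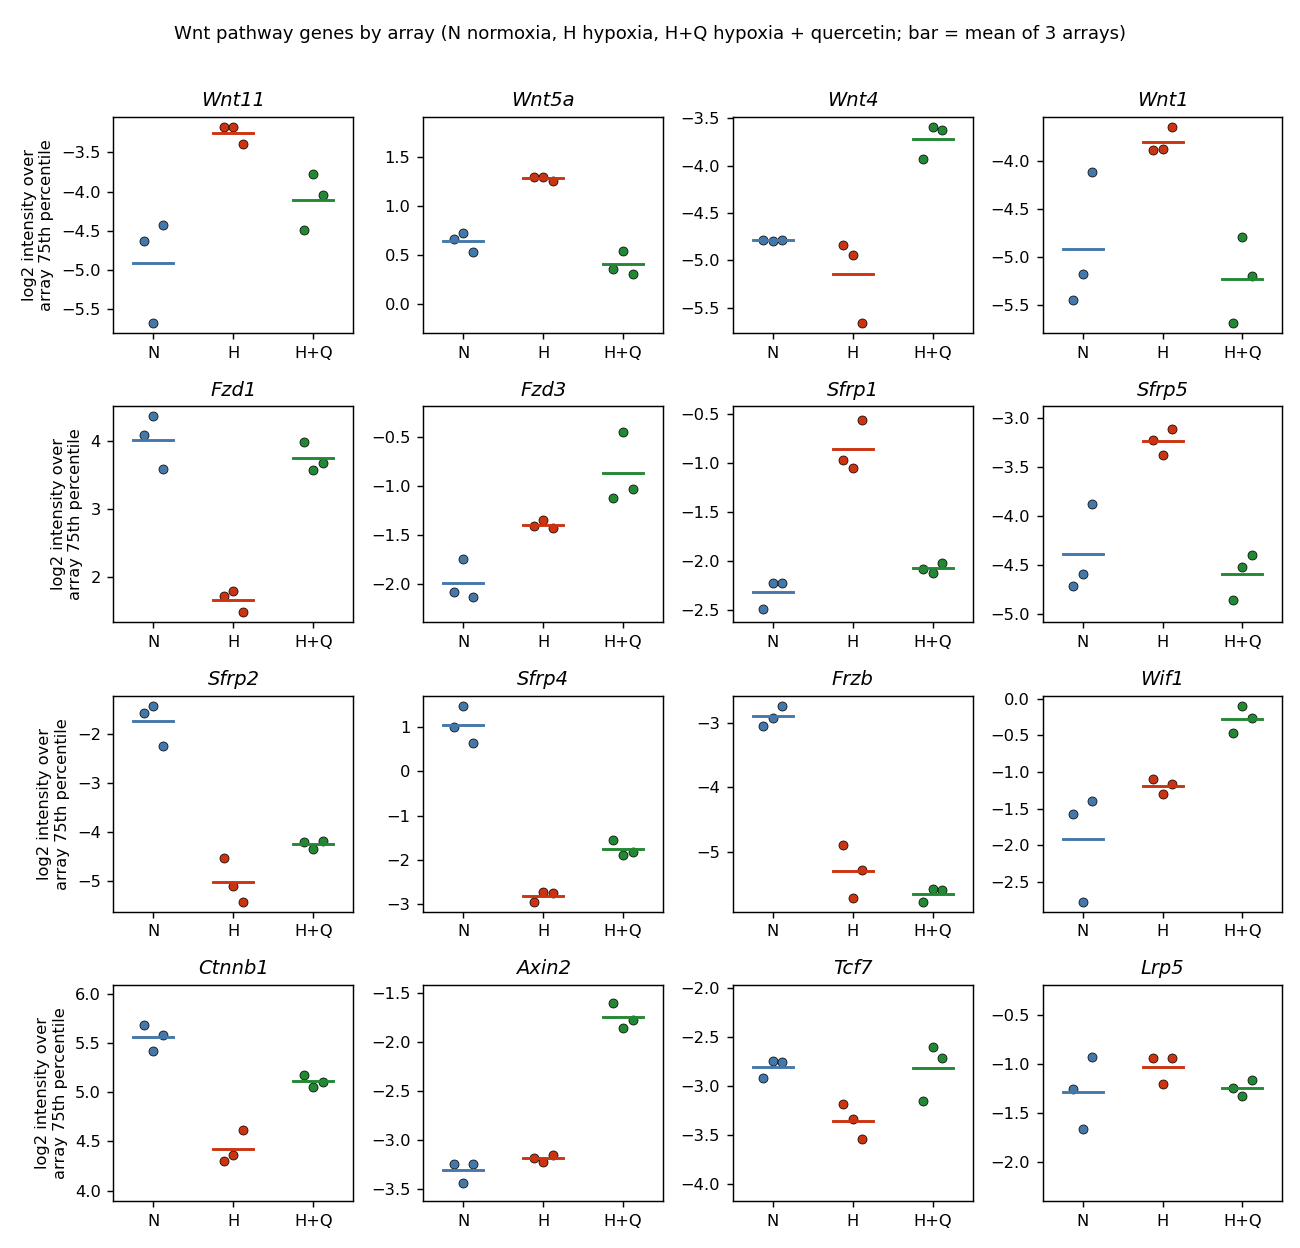
Log2 intensity over the array's 75th percentile (vertical axes, a separate range in each panel) for 16 genes on each array in normoxia (N), hypoxia (H) and hypoxia with quercetin (H+Q); points are arrays and bars the means of 3. Wnt11, Wnt5a, Sfrp1 and Sfrp5 stand highest in hypoxia, Fzd1, Sfrp2, Sfrp4, Ctnnb1 and Tcf7 lowest, and Axin2 is at -1.86 to -1.60 with quercetin against -3.44 to -3.15 elsewhere.

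Of the receptors, Fzd1 changed most. Its values were 4.08, 4.36 and 3.59 in normoxia, 1.73, 1.80 and 1.48 in hypoxia and 3.98, 3.58 and 3.68 with quercetin. The hypoxia arrays were below all others, and the remaining 2 groups overlapped. Fzd1 fell by 2.34 on the log2 scale in hypoxia (SE 0.20, limma adjusted p = 2.8e-05), and passed the threshold in all 22 alternative fits.

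Fzd6, a receptor known for planar polarity, had a measured difference of -0.88 ± 0.29 (limma adjusted p = 0.026). It was well above background on 3 normoxia arrays, no hypoxia array and 1 quercetin array, and no fold is given as a bound. The call was lost without normoxia replicate 2, normoxia replicate 3 or hypoxia replicate 1, and with normexp background correction, where the difference was -0.11 (adjusted p = 0.93), or slide as a block (-1.13, 0.060). Fzd3 rose by 0.59 ± 0.18 (adjusted p = 0.021), a call lost without normoxia replicate 1 or 3, without hypoxia replicate 1 or 2, or with slide as a block (0.74, adjusted p = 0.057). It was 0.33 (adjusted p = 0.40) with normexp background correction and 0.088 (0.65) scaled to the spike-in spots. Fzd2 and Fzd7 did not pass, with differences of -0.010 and 0.58; without quercetin replicate 1 or 2 in the shared fit, Fzd7 passed (adjusted p = 0.044 and 0.043). The co-receptor Lrp5 was at -1.25, -1.66 and -0.93 in normoxia, -0.94, -1.20 and -0.94 in hypoxia and -1.24, -1.33 and -1.16 with quercetin; the groups overlapped, and its difference in hypoxia was 0.25 ± 0.18 (adjusted p = 0.24), though without normoxia replicate 3 it was 0.43 (adjusted p = 0.038).

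The secreted antagonists split. Sfrp4 was at 1.01, 1.49 and 0.65 in normoxia, -2.95, -2.72 and -2.75 in hypoxia and -1.55, -1.89 and -1.82 with quercetin. The groups were wholly apart, hypoxia lowest and quercetin between. The log2 difference in hypoxia was -3.86 ± 0.20 (limma adjusted p = 3.7e-06), and it was called in all 22 alternative fits.

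Its second probe, A_44_P292745, read 0.04, 0.59 and -0.19 in normoxia, -3.32, 3.03 and -3.30 in hypoxia and -2.25, -2.72 and -2.64 with quercetin. Hypoxia replicate 2 stood far above the other hypoxia arrays. The local background of that spot was 529 intensity units, where the same spot had 39.0 to 58.0 on the other arrays, and the scanner software had marked this background as an outlier. With all arrays the probe's difference in hypoxia was -1.34 (adjusted p = 0.45), and without hypoxia replicate 2, a fit added after the values were seen, it was -3.45 (adjusted p = 5.6e-05).

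Sfrp2 was at -1.59, -1.43 and -2.24 in normoxia, -4.52, -5.09 and -5.42 in hypoxia and -4.20, -4.34 and -4.18 with quercetin on its probe A_44_P1036291. Normoxia was above all other arrays, and hypoxia was below quercetin by a narrow margin. The probe was well above background on 3 normoxia, 2 hypoxia and 2 quercetin arrays, so it entered the test only through normoxia. The difference in hypoxia was -3.26 ± 0.26 (limma adjusted p = 2.1e-05), and with normexp background correction -1.33 (adjusted p = 0.017). On the other 2 probes no hypoxia array was well above background, so the fall is a bound. A_44_P503115 was at least 20.6-fold and A_44_P503116 at least 14.8-fold lower in hypoxia, taking for each dim array the higher of the probe's own signal and the lowest signal well above background.

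Frzb, also known as a secreted Frizzled-related protein, was at -3.05, -2.92 and -2.73 in normoxia, -4.90, -5.72 and -5.28 in hypoxia and -5.78, -5.58 and -5.60 with quercetin. It was well above background on 3 normoxia arrays, 1 hypoxia array and no quercetin array, so it entered the test only through normoxia. The difference in hypoxia was -2.40 ± 0.19 (adjusted p = 2.2e-05); with normexp background correction it was -0.67 (adjusted p = 0.24).

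Sfrp1 and Sfrp5 went up. Sfrp1 was at -2.49, -2.23 and -2.23 in normoxia, -0.97, -1.06 and -0.56 in hypoxia and -2.09, -2.13 and -2.02 with quercetin. Hypoxia stood alone above both other groups, by 1.45 ± 0.14 over normoxia (limma adjusted p = 5.3e-05).

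Sfrp5 read -4.71, -4.59 and -3.88 in normoxia, -3.22, -3.38 and -3.11 in hypoxia and -4.86, -4.52 and -4.39 with quercetin. Hypoxia was again highest, by 1.16 ± 0.22 over normoxia (adjusted p = 0.0021). With slide as a block the rise was 0.64 (adjusted p = 0.033), and with normexp background correction 0.30 (adjusted p = 0.71); the gene's other kept probe differed by 0.35 (adjusted p = 0.41). Dkk3 rose by 0.32 (adjusted p = 0.047) but was at -0.18 (0.31) scaled to the spike-in spots; the call was also lost with slide as a block and in 6 of 9 fits that left out an array (each hypoxia array, normoxia replicates 1 and 2, and quercetin replicate 3). Wif1 differed by 0.73 ± 0.32 (adjusted p = 0.075), and by 0.99 (adjusted p = 0.027) without normoxia replicate 3.

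Inside the cell, β-catenin mRNA was lower in hypoxia on both probes shown above. On its brightest probe, Ctnnb1 was at 5.69, 5.42 and 5.59 in normoxia, 4.30, 4.36 and 4.62 in hypoxia and 5.18, 5.06 and 5.10 with quercetin. The groups were separate, hypoxia lowest and quercetin between. The difference in hypoxia was -1.14 ± 0.11 (limma adjusted p = 5.8e-05), and -1.33 on probe A_44_P409339.

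Axin2, a scaffold of the destruction complex and a well-known β-catenin target gene, was at -3.25, -3.44 and -3.24 in normoxia and -3.19, -3.22 and -3.15 in hypoxia. These ranges lay close together without overlap, with a difference of 0.12 ± 0.10 (limma adjusted p = 0.29); scaled to the spike-in spots, the sign turned, at -0.38 (adjusted p = 0.030). Tcf7, a partner of β-catenin on DNA, fell by 0.55 on the log2 scale (adjusted p = 0.015). Without hypoxia replicate 3 it was -0.45 (adjusted p = 0.055), with the slide block -0.60 (0.073) and with normexp background correction -0.27 (0.66). Axin1 did not pass, at -0.14. Lef1 was well above background on 2 normoxia arrays, 2 hypoxia arrays and no quercetin array, and was not tested.

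**Figure D2:**
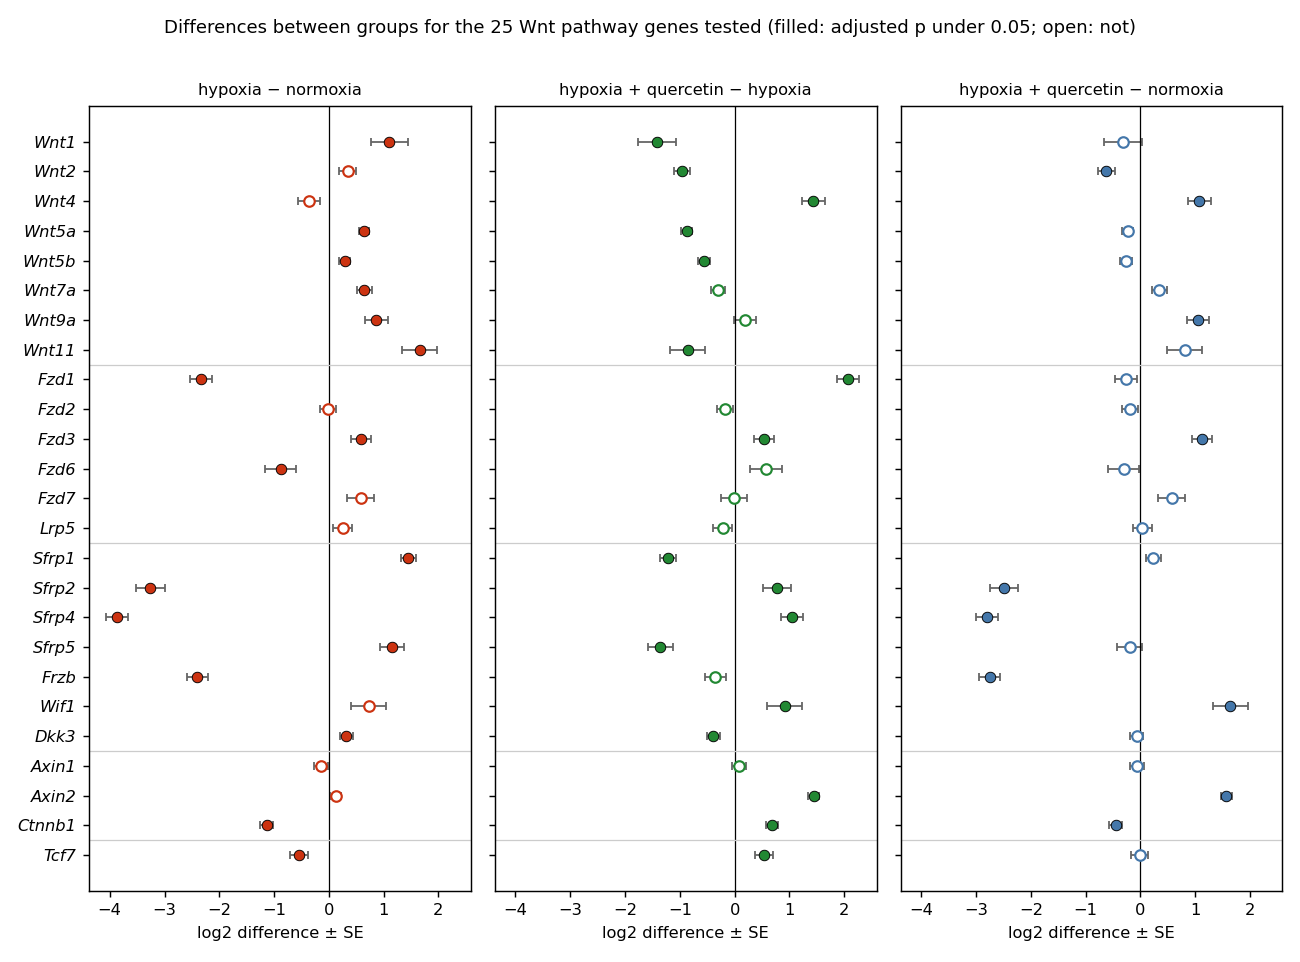
Log2 difference ± SE (horizontal axes) for each of the 25 genes tested, in the 3 comparisons of 3 arrays against 3; grey lines part ligands, receptors, secreted antagonists, destruction complex with β-catenin, and the transcription factor. Filled points passed an adjusted p of 0.05: 17 genes in hypoxia against normoxia, 17 with quercetin against hypoxia and 10 with quercetin against normoxia.

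With slide as a block, which sets the hypoxia arrays against 1 normoxia array (replicate 3, on their own slide) whose spread is taken from the other arrays, 8 of the 25 genes passed: Sfrp1, Sfrp5 and Wnt5a higher and Ctnnb1, Frzb, Fzd1, Sfrp2 and Sfrp4 lower. Of the differences in that fit, Fzd1 had -1.92, Sfrp2 -2.77, Sfrp4 -3.46 and Ctnnb1 -1.16. Scaled to the spike-in spots instead of the 75th percentile, the median of all genes moved to -0.40 and 14 members passed, 3 higher and 11 lower; small changes are thus relative to the scale used.

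Quercetin in hypoxia against hypoxia alone asked what the compound changed under low oxygen. Fzd1 and Axin2 rose most, followed by Wnt4 and Sfrp4, while Wnt1, Sfrp5 and Sfrp1 fell by more than 1 log2 unit. By limma 17 of the 25 tested genes passed, 9 higher and 8 lower, where 58.4% of all genes passed, 26.9% higher and 31.5% lower. At least 2-fold changes were called for 7, 4 higher and 3 lower, where 20.6% of all genes had one, 10.7% higher and 9.9% lower. The groups did not overlap for 18, against 71% of all genes. The median difference was -0.010 over the 25 genes and -0.075 over all genes. This comparison and the one above share the hypoxia arrays, so values of a gene in both are given side by side and no direction shared or opposite between them is read as a result.

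Among ligands, Wnt4 was at -4.78, -4.79 and -4.79 in normoxia, -4.84, -4.94 and -5.66 in hypoxia and -3.93, -3.59 and -3.62 with quercetin. It was well above background on 1 of 3 hypoxia arrays and 2 of 3 quercetin arrays. Every quercetin array was above every other, by 1.43 ± 0.21 over hypoxia (limma adjusted p = 5.3e-04); with normexp background correction the difference was 0.61 (adjusted p = 0.35). Wnt1 had a difference of -1.42 ± 0.35 (adjusted p = 0.0078), Wnt2 of -0.96 (8.3e-04), Wnt5a of -0.88 (1.1e-04) and Wnt5b of -0.55 (0.0027).

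Of these, Wnt5a and Wnt5b passed in all 20 alternative fits, whereas Wnt1 and Wnt2 were near 0 with normexp background correction (0.085 and 0.069). The other kept Wnt5b probe differed by -1.30 (limma adjusted p = 0.046). The other Wnt2 probe, A_44_P524911, was well above background on no array. Wnt11 differed by -0.85 (adjusted p = 0.047), and the call was lost in 6 of 9 fits that left out an array: each hypoxia array, normoxia replicate 1 and quercetin replicates 1 and 3. Wnt9a and Wnt7a did not pass, with 0.18 and -0.30; without hypoxia replicate 2 Wnt7a did, at -0.40 (adjusted p = 0.041).

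Fzd1 rose by 2.07 ± 0.20 (limma adjusted p = 6.7e-05) and overlapped with its normoxia arrays, of which the lowest was 3.59 where the lowest quercetin array was 3.58. It was called in all 20 alternative fits. Fzd3 was at -2.09, -1.74 and -2.13 in normoxia, -1.41, -1.35 and -1.43 in hypoxia and -1.12, -0.45 and -1.03 with quercetin. Every quercetin array was above every hypoxia array, by 0.53 ± 0.18 (adjusted p = 0.035); this call was lost without quercetin replicate 2 (0.32, adjusted p = 0.069) or without any single hypoxia array. Lrp5 differed by -0.22 ± 0.18 (adjusted p = 0.32).

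Of the antagonists, Sfrp4 was higher with quercetin by 1.05 ± 0.20 (limma adjusted p = 0.0023), and Sfrp2 by 0.77 ± 0.26 (adjusted p = 0.033) on its brightest kept probe. The Sfrp2 call was lost without hypoxia replicate 2, hypoxia replicate 3 or any single quercetin array. The other Sfrp2 probes differed by 2.24 and 1.95 in the fit by probe; as bounds they were at least 1.47-fold and 1.11-fold higher. The second Sfrp4 probe had -1.34 (adjusted p = 0.46) with all arrays and 0.77 (adjusted p = 0.030) without hypoxia replicate 2. Frzb, well above background on 1 hypoxia array and no quercetin array, had a measured difference of -0.35 (limma adjusted p = 0.15). It was -0.56 (0.019) without hypoxia replicate 2 and 0.31 (0.60) with normexp background correction, values that compare signal near background.

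**Figure D3:**
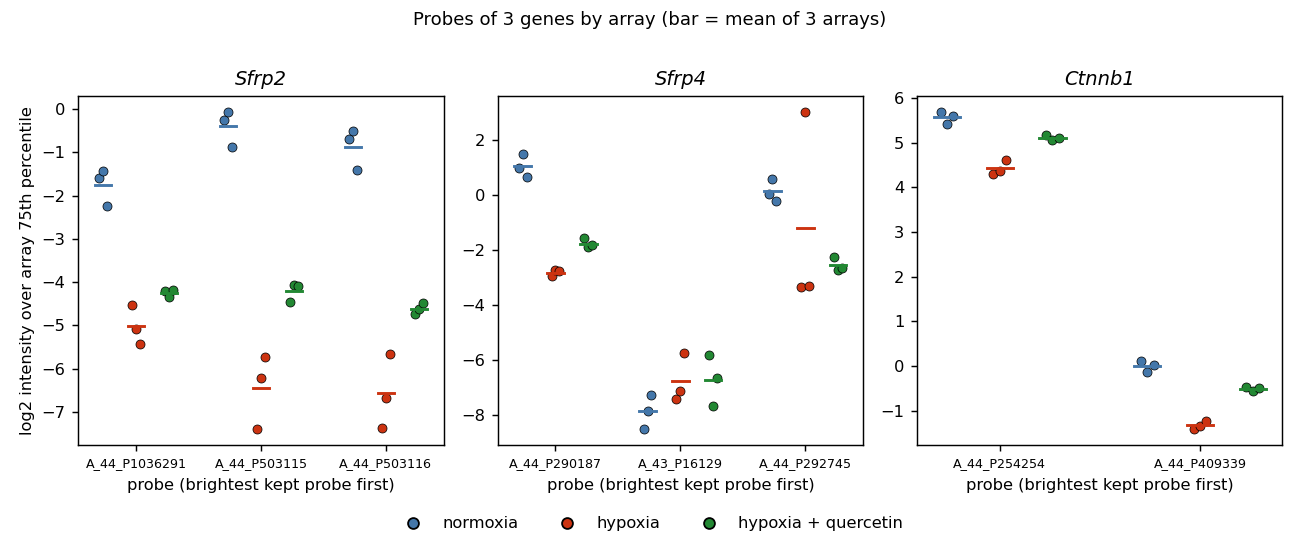
Log2 intensity over the array's 75th percentile (vertical axes) for every probe of Sfrp2 and Sfrp4 and the 2 Ctnnb1 probes printed above, with 1 point per array and bars at the means of 3. Hypoxia is lowest on each Sfrp2 and Ctnnb1 probe drawn; Sfrp4 probe A_44_P292745 has 1 hypoxia array at 3.03, and no array read A_43_P16129 well above background, so its order carries no level.

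Sfrp1 and Sfrp5 differed with quercetin by -1.21 ± 0.14 (limma adjusted p = 1.7e-04) and -1.35 ± 0.22 (0.0011). With normexp background correction these became -0.70 (adjusted p = 0.073) and -0.097 (0.88). Wif1 was at -1.58, -2.77 and -1.40 in normoxia, -1.09, -1.31 and -1.17 in hypoxia and -0.47, -0.09 and -0.27 with quercetin. The quercetin arrays were above all others. The difference of 0.91 ± 0.32 (adjusted p = 0.037) passed in 3 of 9 fits that left out an array: it was lost without any single hypoxia or quercetin array. Dkk3 differed by -0.39 (adjusted p = 0.024), a call lost without any single hypoxia array or quercetin replicate 2 or 3. Its other kept probe, A_44_P645108, went the other way, by 0.20 (adjusted p = 0.35), and differed by 0.87 (0.0026) in hypoxia and by 1.07 (0.0016) with quercetin against normoxia, where the brightest probe had -0.070 (0.67).

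Axin2 was at -1.60, -1.86 and -1.77 with quercetin, far above the 6 other arrays. The difference was 1.44 ± 0.10 over hypoxia (limma adjusted p = 1.2e-05), and the lowest value over 20 alternative fits was 0.90, with an adjusted p of 0.025 at most. Ctnnb1 was higher by 0.69 ± 0.11 (adjusted p = 0.0011), and by 0.82 on probe A_44_P409339; with normexp background correction it missed the threshold, at 0.57 (0.076). Tcf7 was higher by 0.53 ± 0.16 (adjusted p = 0.019); the call was lost without hypoxia replicate 3 or quercetin replicate 2 or 3. Axin1 did not pass, at 0.084.

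Quercetin in hypoxia against normoxia shows which genes lay away from the untreated level. The antagonists Sfrp4, Frzb and Sfrp2 were lower by more than 2 log2 units, and Wif1, Axin2, Fzd3, Wnt4 and Wnt9a were higher by more than 1. By limma 10 of the 25 tested genes passed, 5 higher and 5 lower, where 44.3% of all genes passed, 23% higher and 21.3% lower. At least 2-fold changes were called for 8 of the 25, 5 higher and 3 lower, where 12.9% of all genes had one, 5.69% higher and 7.24% lower. The groups did not overlap for 13, against 53.5% of all genes. The median difference was -0.070 over the 25 genes and 0.040 over all genes.

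Sfrp4 remained lower by -2.81 ± 0.20 (limma adjusted p = 2.9e-05) and Sfrp2 by -2.49 ± 0.26 (1.8e-04). Frzb was at least 4.31-fold lower, since no quercetin array was well above background (measured difference -2.75). Axin2 was higher by 1.57 ± 0.10 (adjusted p = 1.8e-05), Wif1 by 1.64 ± 0.32 (0.0038) and Fzd3 by 1.12 ± 0.18 (0.0016).

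Wnt9a was at -4.56, -5.35 and -4.79 in normoxia, -3.81, -4.04 and -4.25 in hypoxia and -3.79, -3.78 and -3.96 with quercetin. Normoxia was below every other array, and the other groups overlapped. Its difference with quercetin was 1.05 ± 0.20 (limma adjusted p = 0.0035), and that of Wnt4 was 1.07 ± 0.21 (0.0036). Fzd1 differed by -0.26 ± 0.20 (adjusted p = 0.32), Sfrp1 by 0.24 ± 0.14 (0.21) and Lrp5 by 0.037 ± 0.18 (0.88). Ctnnb1 stayed lower by -0.45 ± 0.11 (adjusted p = 0.012). Only normoxia replicate 3 shared a scan day with the quercetin arrays, so a fit with scan day as a block sets them against that 1 array, whose spread is taken from the other groups. In it Ctnnb1 had -0.48 (adjusted p = 0.074), Wif1 1.12 (0.077), Wnt2 -0.56 (0.10) and Wnt9a 0.94 (0.054), and Sfrp5 at -0.71 (0.035) and Wnt1 at -1.11 (0.038) newly passed, while Axin2, Fzd3, Wnt4, Sfrp2, Sfrp4 and Frzb passed. With normexp background correction 3 members passed, Axin2, Wif1 and Sfrp4, while Frzb had -0.36 (adjusted p = 0.64), Sfrp2 -0.82 (0.16), Wnt4 0.49 (0.56) and Wnt9a 0.53 (0.44).

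In the main fit Axin1, Fzd2, Fzd7 and Lrp5 were called in none of the 3 comparisons. Scaled to the spike-in spots, Axin1 and Fzd2 were called lower in hypoxia against normoxia, at -0.65 (limma adjusted p = 9.3e-04) and -0.51 (0.030). With that scaling they were also called lower with quercetin against normoxia, at -0.47 (0.0074) and -0.59 (0.019).

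The 14 genes not tested were Dkk1, Fzd4, Fzd5, Fzd9, Lef1, Wnt10a, Wnt10b, Wnt2b, Wnt3, Wnt6, Wnt7b, Wnt8a, Wnt8b and Wnt9b. Of these, Dkk1, Fzd5, Wnt10b, Wnt6, Wnt8a and Wnt9b were not well above background on any of the 9 arrays; the other 8 were above it on some arrays but on all 3 of no group.

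The upstream windows of Axin2, Wif1 and Wnt9a are shown, chosen after matches to the motifs searched were seen. Other members also had matches: Fzd7, to both motifs, which was called in no comparison of the main fit, and Dkk1, Wnt8a, Wnt2b and Wnt9b, which were not tested. Wnt4, higher with quercetin against normoxia like Axin2, Wif1 and Wnt9a, had no match to either motif. Nor had Fzd1, Sfrp2 and Frzb, which were lower in hypoxia. RefSeq windows (GRCr8) of 250 bases before the start of the gene were found for 28 of the 39 member genes. Matches to CTTTGA, the core that Tcf and Lef factors bind, are in capitals for Axin2, and matches to ACGTG, the core of the hypoxia-inducible factor site, for Wif1 and Wnt9a; both strands were searched, and CACGTG is a match on both.

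Axin2 (chr10:94398535-94398784, + strand): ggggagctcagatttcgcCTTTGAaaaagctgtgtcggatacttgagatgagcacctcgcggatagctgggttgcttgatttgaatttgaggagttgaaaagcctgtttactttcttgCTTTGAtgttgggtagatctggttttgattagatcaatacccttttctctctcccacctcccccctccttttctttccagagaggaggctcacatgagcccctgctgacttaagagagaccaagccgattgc
Wif1 (chr7:58433329-58433578, + strand): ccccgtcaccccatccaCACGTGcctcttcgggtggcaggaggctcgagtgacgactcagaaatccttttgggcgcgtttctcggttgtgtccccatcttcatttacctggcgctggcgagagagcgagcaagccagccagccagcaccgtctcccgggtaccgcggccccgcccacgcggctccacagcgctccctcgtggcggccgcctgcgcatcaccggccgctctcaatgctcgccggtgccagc
Wnt9a (chr10:44593441-44593690, + strand): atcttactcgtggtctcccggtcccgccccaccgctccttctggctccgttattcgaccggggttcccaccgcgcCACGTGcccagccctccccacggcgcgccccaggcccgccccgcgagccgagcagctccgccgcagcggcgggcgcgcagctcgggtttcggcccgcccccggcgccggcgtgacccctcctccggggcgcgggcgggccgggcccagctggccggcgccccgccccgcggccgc

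The Axin2 window holds 2 CTTTGA matches, starting 232 and 132 bases before the start. CTTTGA was found in 4 of the 28 windows and in 13.9% of 33469 windows of all genes, and ACGTG in 5 of the 28 and in 16.6% of all. The members' counts are thus near the shares among all genes. A match is a description of these letters, not a site.

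Other genes of the pathway were read from lists by role, beside the 64.2% of all genes that passed in hypoxia against normoxia, 58.4% with quercetin against hypoxia and 44.3% with quercetin against normoxia. Of the secretion and surface modulators 13 of 23 were tested; 3 rose and 4 fell in hypoxia (53.8% passed), and 2 rose and 6 fell with quercetin against hypoxia (61.5%). Rspo3, an R-spondin that enhances Wnt signalling at the receptor, had a difference of -3.66 ± 0.17 in hypoxia (limma adjusted p = 2.7e-06) and 1.03 with quercetin. Apcdd1, an inhibitor at the membrane, fell by 1.13 in hypoxia. Cthrc1, a secreted matrix protein that favours β-catenin-independent signalling, differed by -0.88 in hypoxia and by -2.20 with quercetin, Serpinf1 by -1.62 and Igfbp4 by -1.46 with quercetin. Against normoxia 7 of the 13 were lower with quercetin and none higher (limma; 53.8% passed), with a list median of -0.50, where 21.3% of all genes were lower and 23% higher with a median of 0.040.

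Of 14 non-canonical receptors and planar polarity genes tested of 17, 4 rose and 2 fell in hypoxia (42.9% passed, of all genes 64.2%), and 2 rose and 4 fell with quercetin (42.9%, of all genes 58.4%). The polarity genes Vangl2 and Vangl1 differed by 1.22 and 0.77 in hypoxia and by -0.83 and -0.80 with quercetin. Scrib and Daam1, also polarity genes, differed by -0.40 and -0.55 and by 0.57 and 0.82.

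Of 23 cytoplasmic genes tested of 30, 11 rose and 5 fell in hypoxia (69.6% passed, of all genes 64.2%), and 3 rose and 9 fell with quercetin (52.2%, of all genes 58.4%). Csnk1g1, a casein kinase, differed by 1.53 ± 0.16 in hypoxia (limma adjusted p = 8.6e-05) and by -1.64 with quercetin. The Dishevelled-binding inhibitor Nkd2 differed by 1.99 and by -1.12.

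Of 21 nuclear cofactors tested of 22, 3 rose and 7 fell in hypoxia (47.6% passed, of all genes 64.2%), and 6 rose and 4 fell with quercetin (47.6%, of all genes 58.4%). Tle4, a Groucho co-repressor, differed by -3.37 ± 0.24 in hypoxia (limma adjusted p = 1.1e-05) and by 2.73 ± 0.24 with quercetin (3.8e-05). Bcl9, a β-catenin co-activator, differed by 0.63 and -0.74.

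Of 24 β-catenin target genes tested of 27, 6 rose and 11 fell in hypoxia (70.8% passed, of all genes 64.2%), 9 rose and 5 fell with quercetin (58.3%, of all genes 58.4%), and 5 were higher and 10 lower with quercetin against normoxia (62.5%, of all genes 44.3%). Ccn4, a matricellular Wnt target, differed by -2.96 ± 0.13 in hypoxia (limma adjusted p = 2.4e-06) and by 1.79 with quercetin. The growth regulator Myc differed by -1.89 and 1.38, and the homeobox gene Msx1 by -0.95 and 1.36. Among the targets that rose in hypoxia, Gja1 differed by 1.23, by -0.11 with quercetin against hypoxia and by 1.12 with quercetin against normoxia. Plaur and Tcf4 had lower values with quercetin, by -1.47 and -1.09. The list median was -0.29 in hypoxia and -0.014 with quercetin, where all genes had 0.10 and -0.075.

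**Figure D4:**
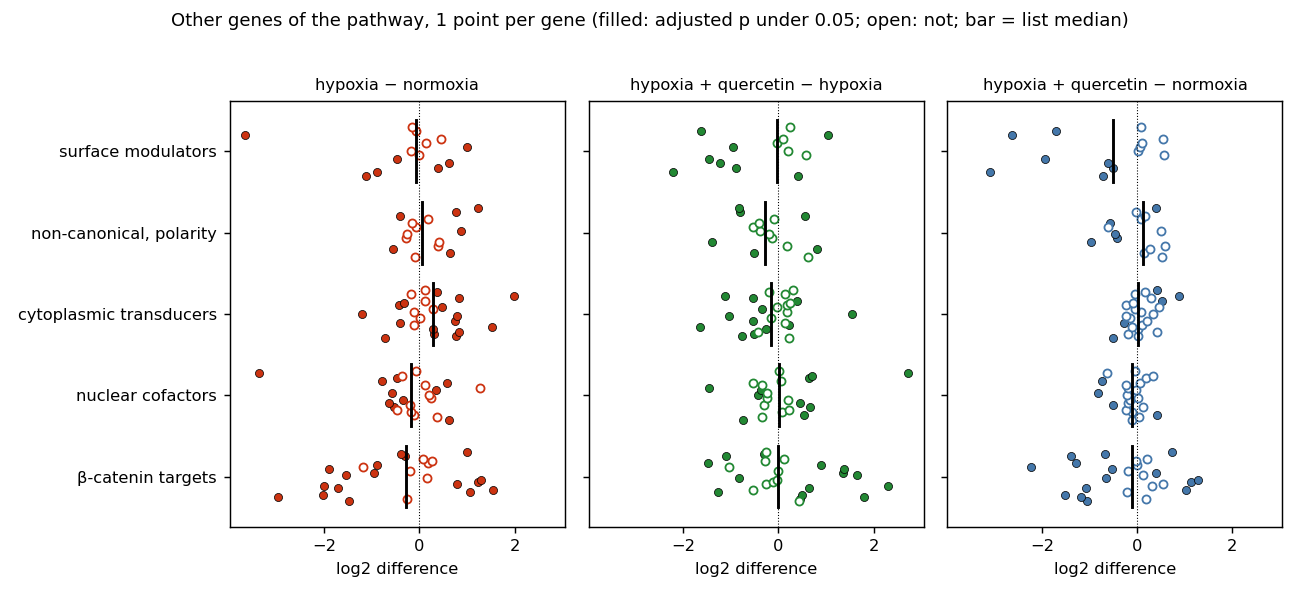
Log2 differences (horizontal axes) of the tested genes in 5 lists of other pathway genes, in the 3 comparisons; each point is a gene, filled where its adjusted p was under 0.05, and black bars are list medians. Points lie on both sides of 0 in every list in hypoxia against normoxia, from -3.66 for Rspo3 to 1.99 for Nkd2.

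Markers of other cells moved beside these genes. Of the fibroblast list 9 of 10 genes were tested, with a summed signal (log2) of 9.72 to 9.81 (normoxia), 10.2 to 10.4 (hypoxia) and 9.67 to 9.91 (quercetin). In hypoxia 3 of the 9 rose (Col1a1 by 0.73, Col3a1 by 0.53 and Thy1 by 0.38) and 4 fell (differences of -4.24 for Dcn, -3.62 for Lum, -2.91 for Dpt and -1.45 for Fap). Of these 9 genes 77.8% passed there, of all genes 64.2%. With quercetin against hypoxia 6 fell and none rose (66.7%, of all genes 58.4%). Against normoxia 7 were lower with quercetin and 1 higher (88.9%, of all genes 44.3%). The epithelial list had 4 of 8 genes tested and sums of 1.92 to 2.49, 5.30 to 5.55 and 2.90 to 3.18, with Epcam and Cdh1 not tested, and the leukocyte list 6 of 9 and sums of 2.07 to 2.49, 1.85 to 1.99 and 1.42 to 1.47. In hypoxia the epithelial genes Krt18, Krt7 and Krt8 rose by 4.93, 3.12 and 2.15, and none fell (75% passed, of all genes 64.2%). Of the 6 leukocyte genes tested 66.7% passed in hypoxia: Lyz2, Csf1r and Cd74 rose by 4.10, 0.70 and 0.34, and only Cd14 fell (-0.95). The leukocyte sum thus does not give the direction of each gene. Nor does the fibroblast sum, which mostly follows its brightest genes, Col1a1 and Col3a1 (means of 8.33 and 8.60 in normoxia). With quercetin against hypoxia Cd68 rose and 4 leukocyte genes fell (83.3% passed, of all genes 58.4%). The part of these markers in the results was not tested. In such samples fewer cells of a type and less RNA per cell cannot be told apart.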

How the data were processed

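Spot intensities are those the authors deposited as scanner output of Agilent Feature Extraction 10.7.3.1, per the file headers, with background already subtracted. The value table the authors deposited holds log2 values of the same arrays, used as an alternative (r of 0.997 or above with the scanner values). Intensities were turned to log2 and each array's 75th percentile subtracted; control spots and outlier spots were left out. Of 41012 probes, 26654 (65.0%) stood well above background throughout some group of 3 arrays, and the brightest such probe stood for its gene. limma 3.58.1 in R 4.3.3 was fitted to all 9 arrays, with Benjamini-Hochberg adjustment over 22108 genes. The fit was also run on simulated data with independent noise, few changed genes and no slide or scan day effect. These settings differ from the arrays here, so that run does not test the calls made. Genes were named by accession through RefSeq tables, else by symbol, synonym or the files' name; 1 probe whose accession belongs to Fzd7 but whose file name differs was not counted as a member. One Ctnnb1 probe is not reported here.

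Members and lists were chosen with earlier results of these data known. Described in full were members at least 2-fold changed, past the threshold and without overlap in any comparison, and Ctnnb1, Axin2, Lef1 and Lrp5; from each list, up to 4 genes per comparison with the smallest adjusted p were eligible to be named. The labels describe a labelling kit for miRNA, whereas the scanner files carry a gene expression protocol. The number of arrays limits the precision. Alternatives were another background correction, scalings, filters, blocks for slide, scan day and replicate number, and leaving out each array.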

Additional observations from a re-analysis of the deposited data

How the results depend on the processing

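Counts of members called in hypoxia against normoxia, quercetin against hypoxia and quercetin against normoxia were 17, 17 and 10. With normexp background correction they were 6, 6 and 3, and over probes well above background on all 9 arrays 9, 10 and 6 of the 14 members tested there. Slide or scan day as a block gave 8 in hypoxia against normoxia, and spike-in scaling gave 19 in quercetin against normoxia, 5 higher and 14 lower. Leaving out each array in turn gave 13 to 18, 11 to 17 and 10 to 13; the 11 came without hypoxia replicate 3. In hypoxia, one value per probe gave 11 lower where genes gave 7. Over all genes, normexp background correction gave 6721, 6166 and 3171 calls against 14195, 12914 and 9793, and scan day as a block 5815 in the last. With no filter on dim probes the median of all genes was 0.39 in hypoxia.

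Signs of called differences turned with normexp background correction for Wnt1 (0.085), Wnt11 (0.11) and Wnt2 (0.069) in quercetin against hypoxia and Wnt2 (0.092) in quercetin against normoxia. With spike-in scaling they turned for Dkk3 (-0.18) and Wnt5b (-0.22) in hypoxia, and Axin2 (-0.38) turned and newly passed there; without hypoxia replicate 2 the second Sfrp4 probe (0.77) did so in quercetin against hypoxia.

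Differences called in neither fit turned as follows. In hypoxia against normoxia, normexp gave Axin2 -0.020 and Fzd2 0.0095, spike-in scaling Lrp5 -0.25 and Wnt2 -0.16, and the slide or scan day block Lrp5 -0.097. In quercetin against hypoxia, normexp gave Axin1 -0.0048, Frzb 0.31, Fzd7 0.40 and Wnt7a 0.13, and spike-in scaling Fzd7 0.084. In quercetin against normoxia, normexp gave Fzd6 0.38, Sfrp5 0.20, Tcf7 0.20 and Wnt1 0.26, and spike-in scaling Lrp5 -0.37, Sfrp1 -0.17 and Wnt7a -0.062. There the scan day block gave Fzd1 0.15 and Lrp5 -0.31, median scaling Lrp5 -0.028, and quantile normalization and the deposited table Axin1 0.0086 and 0.0085. Leaving out each array in turn gave Fzd2 -0.12 to 0.11 in hypoxia, and Axin1 -0.024 to 0.16 and Fzd7 -0.21 to 0.20 in quercetin against hypoxia. In quercetin against normoxia it gave Axin1 -0.17 to 0.015, Dkk3 -0.15 to 0.044, Lrp5 -0.15 to 0.21, Sfrp5 -0.36 to 0.059, Tcf7 -0.12 to 0.15 and Wnt1 -0.58 to 0.086. The cause was not tested.

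Same-numbered arrays of different groups deviated with correlations of -0.27 to 0.019. With few arrays per group and the normoxia arrays split between slides, these values cannot tell whether the numbers pair the arrays. A replicate block gave 17, 16 and 10 calls. Over members, 1327 values under an alternative kept their direction and side of the threshold, 133 no longer passed, 36 newly passed and 46 turned sign, 7 of them called in either fit. Signal near background limits Wnt1, Wnt2, Wnt4, Wnt9a, Wnt11, Fzd6, Fzd7, Frzb, Sfrp2, Sfrp5 and Tcf7. None of these tested genes was well above background on every array.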
